A study of Mus musculus with 6 samples.

Results

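Endothelium in isolated aortic valves was followed through 10 genes that mark endothelial cells: Pecam1, Cdh5, Esam, Cldn5, Emcn, Tek, Tie1, Kdr, Flt1 and Nos3. They were chosen by symbol among the 46983 genes of the deposited table, with earlier results of these data known. Each symbol matched 1 gene. RNA-seq had been carried out on aortic valves isolated from wild type C57BL/6J mice on regular chow, either as pups at postnatal day 2 (PND2) or as adults at 4 months of age. No treatment or transgene was used at either age. There were 3 libraries per age, and each pooled the valves of 5 to 6 mice, so that the spread between libraries is a spread between pools. Levels are given in RPKM, which are reads scaled by the length of the exons and by the library total, and as mean ± SD over the 3 libraries of an age unless stated.

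Heart valves are covered on both faces by a single sheet of endothelial cells that is continuous with the endocardium and with the lining of the aorta. These cells hold together through adherens junctions, built on VE-cadherin, and tight junctions, built on claudins, with immunoglobulin-type adhesion molecules such as PECAM-1 and ESAM beside them. They read growth signals through the VEGF receptors and through the angiopoietin receptor Tie2 with its partner Tie1, and they release nitric oxide through endothelial nitric oxide synthase. Valve endothelium is known for signalling to the interstitial cells beneath it, and some of its cells give rise to interstitial cells while the valve forms.

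The library totals were derived from the RPKM values themselves, with the smallest exon value above 0 taken as a single read. They ran from 23810507 to 38994657, and mitochondrial genes held between 5.44 and 9.60% of the reads on genes. Multiplying each RPKM value by exonic length and library total returned whole reads for 100% of the values, which is partly built in, since the totals were set to make exon values whole. The depth behind each member was taken from these reads. It ran from 921 reads for Cldn5 in 4 month replicate 2 (95% Poisson interval -6.35 to 6.67% around the value) to 33199 reads for Pecam1 in PND2 replicate 1 (-1.07 to 1.08%). These intervals cover counting error only and take the reads as independent. They are too narrow if both mates of a read pair were counted. All 10 members passed the filter on low values, an RPKM of at least 0.1 in 3 libraries, which 25903 genes passed.

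To ask how these transcripts differ between the growing and the adult valve, PND2 was compared with 4 months. Of the 10 genes, 9 were lower at 4 months and 0 were higher, by limma on log2(RPKM + 0.1) at a Benjamini-Hochberg adjusted p under 0.05 over all genes tested. In the same fit 21.1% of all genes tested were lower and 14.7% were higher (5463 and 3810 genes). With each library scaled by its median log2 ratio instead, 4099 genes were lower and 4661 higher, and the count among the 10 was 7 lower, with Pecam1 and Flt1 no longer called. Cldn5, Emcn, Tie1, Cdh5 and Tek fell by a factor of more than 2, and Kdr, Nos3, Flt1 and Pecam1 fell by less. A factor of more than 2 in either direction with an adjusted p under 0.05 was found for 17.5% of all genes. The median log2 fold change of the 10 genes was -0.98, against -0.14 for all genes tested. In 9 of the 10 genes every 4 month library lay below every PND2 library, which held for 29.9% of all genes, and in Esam the ages overlapped. Because whole valves were sequenced, fewer endothelial cells, less RNA per endothelial cell and more RNA from other cells cannot be told apart. The libraries also held cardiomyocyte and smooth muscle transcripts, and endothelium of adjoining tissue cannot be told from that of the valve.

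**Figure D1:**
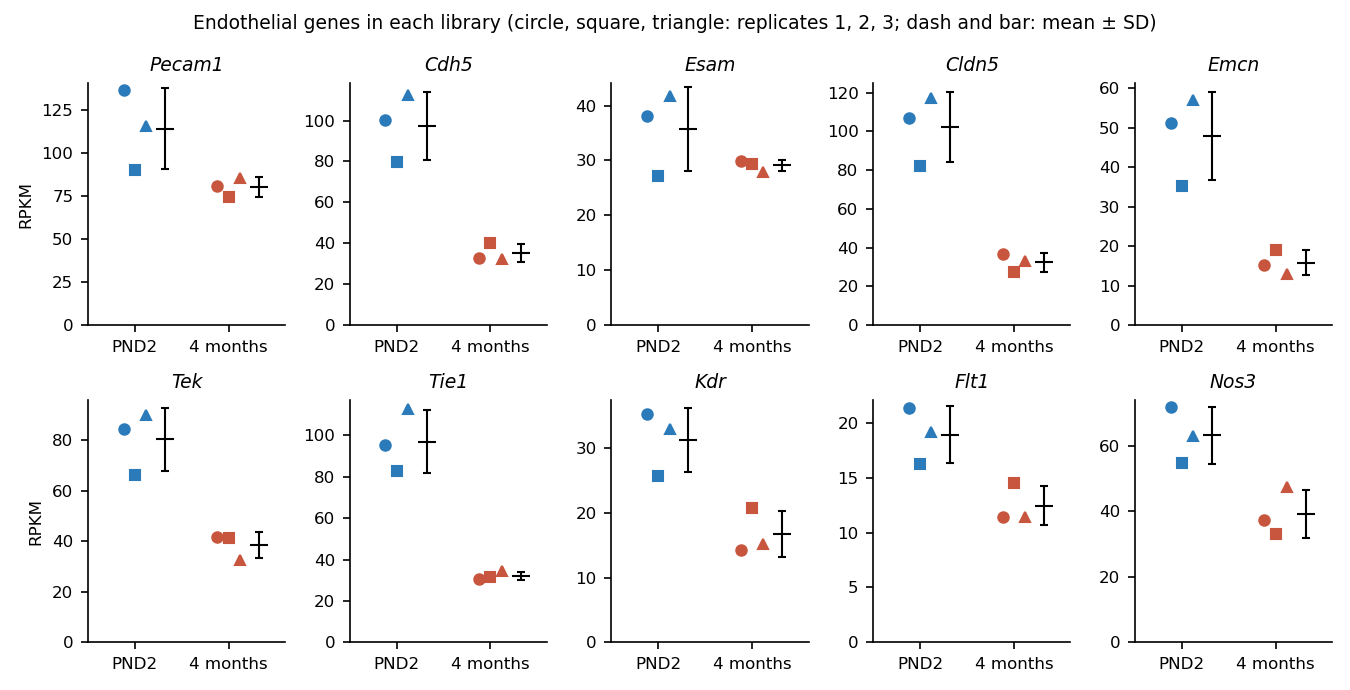
RPKM of each of the 10 endothelial genes in the 3 libraries of PND2 (blue) and of 4 months (red), with symbols for the replicates and the mean ± SD beside them; every vertical axis starts at 0. PND2 replicate 2 (blue square) is the lowest PND2 library in all 10 genes, and the ages overlap only in Esam.

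The 10 genes shared a pattern within PND2. Replicate 2 had the lowest RPKM of the 3 PND2 libraries for 10 of the 10 members, while it was the lowest for 30.7% of all genes tested. The RPKM of the members summed to 742, 560.0 and 762 in PND2 replicates 1 to 3. At 4 months the sums were 331, 332 and 333 RPKM, and the lowest library was replicate 1 for 2 members, replicate 2 for 3 and replicate 3 for 5. Without PND2 replicate 2 all 10 genes were lower at 4 months by limma and their median log2 fold change was -1.11. In that fit 3706 of 25280 genes tested were lower. Leaving out the lowest PND2 library raises the PND2 mean of every member, so this count is no separate support.

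Among the adhesion molecules, Cdh5 encodes VE-cadherin, the transmembrane protein of endothelial adherens junctions. The gene (ENSMUSG00000031871) lies on the plus strand of mm10 at chr8:104101625-104144502. It measured 100.4, 79.5 and 112 RPKM in PND2 replicates 1 to 3 and 32.9, 40.4 and 32.3 RPKM in 4 month replicates 1 to 3. The lowest PND2 library stood well above the highest 4 month library. The mean went from 97.5 ± 16.7 to 35.2 ± 4.50 RPKM (n = 3), and the fitted log2 fold change was -1.46 with a standard error (SE) of 0.15 and a limma adjusted p of 5.7e-04.

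Cldn5 encodes claudin-5, a pore-sealing protein of endothelial tight junctions, and is a short gene (ENSMUSG00000041378, plus strand, chr16:18776847-18778260). It measured 107, 82.1 and 117 RPKM at PND2 and 36.6, 27.4 and 33.0 RPKM at 4 months. The ages were far apart, and the fall of 1.65 on the log2 scale (SE 0.16, limma adjusted p = 4.6e-04) had the lowest fitted value of the 10 genes, although its interval of -2.04 to -1.27 included the values of Emcn, Tie1 and Cdh5.

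Pecam1 encodes PECAM-1 or CD31, an adhesion molecule of endothelial junctions that is also carried by platelets and leukocytes. The gene (ENSMUSG00000020717) lies on the minus strand at chr11:106654217-106750628. It was the most abundant of the 10 per length at both ages, at 137, 90.2 and 116 RPKM at PND2 and 80.8, 74.3 and 85.5 RPKM at 4 months. PND2 replicate 2 came near the highest 4 month library without crossing it. The mean went from 114 ± 23.3 to 80.2 ± 5.61 RPKM, and the fitted log2 fold change was -0.49 (95% interval -0.86 to -0.13, limma adjusted p = 0.0439). This call was kept in 7 of 18 alternatives, and among the fits that each left out 1 library it was kept only without PND2 replicate 2, with values from -0.65 to -0.35.

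Markers of the other cells that carry PECAM-1 were not lower at 4 months by the test. All 11 leukocyte markers were higher at 4 months, with a summed level of 256 to 309 RPKM at PND2 and 539 to 695 RPKM at 4 months. Of the 8 platelet and megakaryocyte markers tested, out of 9 listed, 0 passed the test in either direction. Their median change was -0.24 on the log2 scale. Gp9 and Itga2b stood at -0.87 and -0.67 (limma adjusted p = 0.0663 and 0.0725), while Pf4, Gp1bb and Ppbp were above 0, Ppbp at 0.98. The sum of the 9 listed was 77.7 to 81.9 RPKM at PND2 and 68.6 to 89.2 RPKM at 4 months and was mostly Pf4, so it does not show how the less abundant markers moved. Pf4, a platelet chemokine, was the most abundant of them at 56.6 and 58.8 RPKM on average. Their part in the level of Pecam1 was not tested.

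Esam encodes an adhesion molecule of endothelial tight junctions (ENSMUSG00000001946, plus strand, chr9:37528078-37538319). It measured 38.1, 27.2 and 41.8 RPKM at PND2 and 29.98, 29.3 and 28.0 RPKM at 4 months. Replicate 2 of PND2 lay below all 3 libraries of 4 months and the other two PND2 libraries lay above them. The log2 fold change was -0.27, with a 95% interval of -0.65 to 0.11 and a limma adjusted p of 0.234. Its value stayed negative in all 18 alternatives, from -0.46 to -0.15, and passed the threshold in 1, the fit without PND2 replicate 2.

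Emcn encodes endomucin, a sialomucin of the endothelial surface (ENSMUSG00000054690, plus strand, chr3:137341067-137432185). It measured 51.2, 35.4 and 56.95 RPKM at PND2 and 15.3, 19.2 and 13.1 RPKM at 4 months, with no overlap. The mean was 3.02 times higher at PND2, and the log2 fold change was -1.58 (SE 0.21, limma adjusted p = 0.00157).

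Tie1 and Tek are paralogous receptor tyrosine kinases. Tek encodes Tie2, which binds the angiopoietins, and Tie1 encodes a partner that has no well-established ligand of its own and modulates Tie2. Tek (ENSMUSG00000006386, plus strand, chr4:94739289-94874976) measured 84.5, 66.2 and 90.1 RPKM at PND2 and 41.9, 41.3 and 32.5 RPKM at 4 months. Its log2 fold change was -1.05 (SE 0.15, limma adjusted p = 0.00220). Tie1 (ENSMUSG00000033191, minus strand, chr4:118471191-118490061) measured 95.5, 82.8 and 113 RPKM at PND2 and 30.7, 31.8 and 34.3 RPKM at 4 months. It had the tightest 4 month values of the pair, and its log2 fold change was -1.58 (SE 0.13, limma adjusted p = 2.1e-04). Neither gene overlapped between the ages.

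The balance of the pair differed between the ages in these libraries, although the 95% intervals of the 2 fold changes overlapped (-1.41 to -0.69 for Tek and -1.87 to -1.28 for Tie1). Within a library, Tie1 stood at 1.13, 1.25 and 1.25 times Tek at PND2 and at 0.733, 0.770 and 1.06 times Tek at 4 months. The 3 ratios of 4 months lay below the 3 of PND2, although 4 month replicate 3 was still above 1. The log2 ratio differed by -0.52 between the ages (2-sided exact permutation test, p = 0.1, the smallest that 3 against 3 allows). This pairing was chosen after the values were seen.

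The 250 bases before the starts of Tie1, Tek and Cldn5 are shown from RefSeq (GRCm38.p6), 5′ to 3′ on the strand of the gene. These genes were picked after their values were seen, and a link between the sequences and the changes was not tested. Capitals mark GGAA or its reverse complement TTCC, the core letters that ETS factors, a family active in endothelium, recognise. The start that RefSeq gives for Tie1 lies inside the deposited gene model, which begins upstream of it.
Tie1 (chr4:118489850-118490099, minus strand): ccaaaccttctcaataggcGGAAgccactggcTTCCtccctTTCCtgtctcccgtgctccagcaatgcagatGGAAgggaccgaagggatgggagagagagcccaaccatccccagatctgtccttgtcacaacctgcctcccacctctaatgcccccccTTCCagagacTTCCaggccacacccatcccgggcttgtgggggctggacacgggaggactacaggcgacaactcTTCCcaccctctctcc
Tek (chr4:94739039-94739288, plus strand): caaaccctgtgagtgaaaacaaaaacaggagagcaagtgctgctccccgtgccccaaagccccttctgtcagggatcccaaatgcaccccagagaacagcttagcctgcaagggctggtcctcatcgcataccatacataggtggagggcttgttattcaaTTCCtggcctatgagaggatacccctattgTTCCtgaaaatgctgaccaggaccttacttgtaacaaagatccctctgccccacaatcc
Cldn5 (chr16:18776597-18776846, plus strand): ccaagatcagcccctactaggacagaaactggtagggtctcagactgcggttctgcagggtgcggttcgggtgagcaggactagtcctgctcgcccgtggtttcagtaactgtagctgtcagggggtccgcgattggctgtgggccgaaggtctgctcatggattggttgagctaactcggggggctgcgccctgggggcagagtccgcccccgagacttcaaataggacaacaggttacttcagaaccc

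The Tie1 sequence held 7 matches, and 3.82% of the 32851 promoters of the same length held as many or more. The Tek sequence held 2 and the Cldn5 sequence 0, as did 6.55% of all promoters. At least 1 match was found in 93.5% of promoters and the median was 3. Kdr, Flt1 and Emcn held 4 each. The letters GATA were found once each before Tek and Kdr and in 53.6% of promoters, where both strands were searched for all letters. ACAAT, core letters of SOX factors, was found 2 times before Tek and once before Emcn and in 27.7% of promoters, and ACAAAG once before Tek and in 16.5%. A match of letters is a description of these windows and does not show that a factor binds there.

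Kdr and Flt1 encode the VEGF receptors VEGFR2 and VEGFR1. VEGFR2 carries most of the growth signal of VEGF-A in endothelium, and VEGFR1 binds VEGF-A tightly with weaker kinase activity and is also made in a soluble form that holds the ligand away. Kdr (ENSMUSG00000062960, minus strand, chr5:75932827-75978458) measured 35.3, 25.8 and 32.9 RPKM at PND2 and 14.3, 20.8 and 15.2 RPKM at 4 months, a log2 fold change of -0.91 (SE 0.18, limma adjusted p = 0.00784). Flt1 (ENSMUSG00000029648, minus strand, chr5:147561604-147726011) was the least abundant of the 10 per length, at 21.4, 16.2 and 19.2 RPKM at PND2 and 11.4, 14.5 and 11.4 RPKM at 4 months. For both receptors 4 month replicate 2 was the highest of its age and still lay below the lowest PND2 library. The log2 fold change of Flt1 was -0.60 (SE 0.15, limma adjusted p = 0.0198), and this call was kept in 12 of 18 alternatives. It was lost without PND2 replicate 3 and without 4 month replicates 1 or 3, where the adjusted p reached 0.0693.

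Within a library, Flt1 stood at 0.607, 0.630 and 0.583 times Kdr at PND2 and at 0.803, 0.699 and 0.751 times Kdr at 4 months. The ratios did not overlap, and the log2 ratio differed by 0.31 (2-sided exact permutation test, p = 0.1). This pairing too was chosen after the values were seen.

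Nos3 encodes endothelial nitric oxide synthase (ENSMUSG00000028978, plus strand, chr5:24364810-24384474). It measured 72.0, 54.7 and 63.1 RPKM at PND2 and 37.3, 33.2 and 47.4 RPKM at 4 months, with no overlap. The log2 fold change was -0.69 (SE 0.16, limma adjusted p = 0.0141). Of its 4132 exonic bases, 1040 are shared with the antisense gene Gm15587, at 15.4 RPKM on average, and 294 with Atg9b on the opposite strand. Whether the counting used strand is not given in the sources used here, so reads of Nos3 and of these genes cannot be told apart where they overlap. All 27 Nos3 exons tested were lower at 4 months, by 0.53 to 0.99 on the log2 scale, which repeats the fall of the gene. The share of all exons that were lower was not counted.

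**Figure D2:**
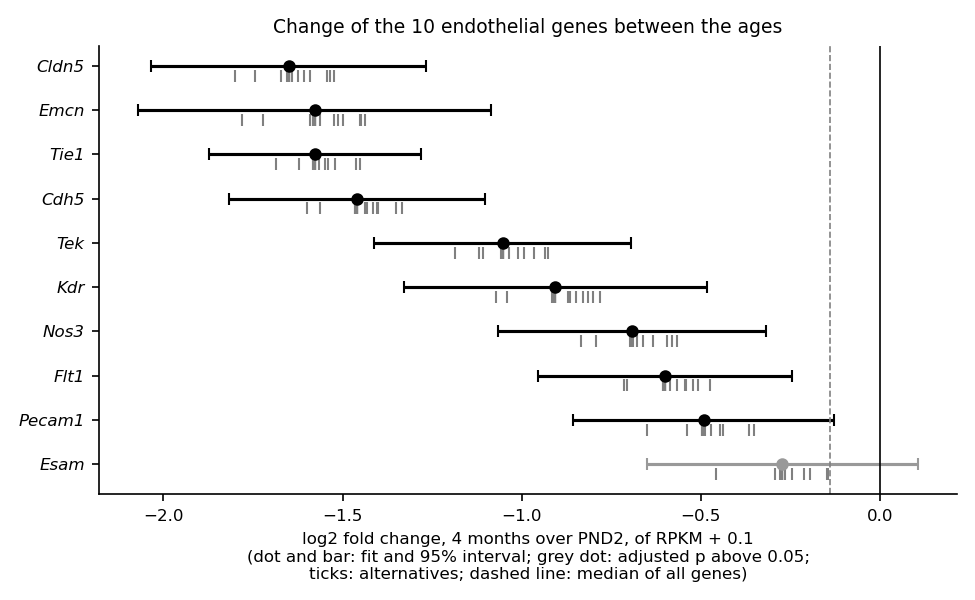
Log2 fold change from PND2 to 4 months of RPKM + 0.1 for the 10 endothelial genes, with the 95% interval of the limma fit (bars), the 18 alternatives (ticks) and the median of all genes tested at -0.14 (dashed line). The values run from -1.65 for Cldn5 to -0.27 for Esam, whose interval alone crosses 0.

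The order of levels per length was not the same at both ages. At PND2 the means ran from Pecam1 (114 RPKM) over Cldn5 (102), Cdh5 (97.5), Tie1 (97.0), Tek (80.2), Nos3 (63.3), Emcn (47.9), Esam (35.7) and Kdr (31.3) to Flt1 (18.9). Each neighbour in this order overlapped the next across libraries, except that Kdr lay wholly above Flt1. At 4 months Pecam1 (80.2 RPKM) lay wholly above Nos3 (39.3), which was followed by Tek (38.5), Cdh5 (35.2), Cldn5 (32.3), Tie1 (32.2), Esam (29.1), Kdr (16.8), Emcn (15.8) and Flt1 (12.5). Neighbours there overlapped except Pecam1 with Nos3, Tie1 with Esam and Esam with Kdr.

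To see whether the 10 genes fell by the same amount, each was set against Cdh5 in the same library, which takes the library total out of the comparison. For Tie1, Emcn and Cldn5 the ratios to Cdh5 overlapped between the ages, with differences of -0.12, -0.12 and -0.19 on the log2 scale (2-sided exact permutation p of 0.6, 0.3 and 0.7). The other 6 stood higher relative to Cdh5 in every 4 month library than in any PND2 library. Cdh5 itself changed by -1.46 on the log2 scale, against a median of -0.14 for all genes tested. A gene that fell less than Cdh5 therefore rises in this ratio, and the share of all genes that do so was not counted. Esam stood at 0.381, 0.343 and 0.372 times Cdh5 at PND2 and at 0.911, 0.727 and 0.867 times Cdh5 at 4 months. Pecam1 went from 1.36, 1.13 and 1.03 to 2.45, 1.84 and 2.64 times Cdh5, and Flt1 from 0.214, 0.205 and 0.171 to 0.349, 0.361 and 0.355 times.

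For Nos3 the ratio to Cdh5 went from 0.717, 0.688 and 0.561 to 1.13, 0.823 and 1.47, the widest 4 month spread of these ratios on the log2 scale. Kdr and Tek differed by 0.55 and 0.41 on the log2 scale. Each of the 6 had an exact permutation p of 0.1, the smallest possible here, and an adjusted p of 0.15 over the 9 ratios compared. These ratios show unequal change among the 10 and not which gene stayed level. With Pecam1 as the reference instead, the differences of Tek, Kdr, Flt1 and Nos3 were -0.56, -0.42, -0.11 and -0.20 on the log2 scale, and of these only Tek reached the smallest p.

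**Figure D3:**
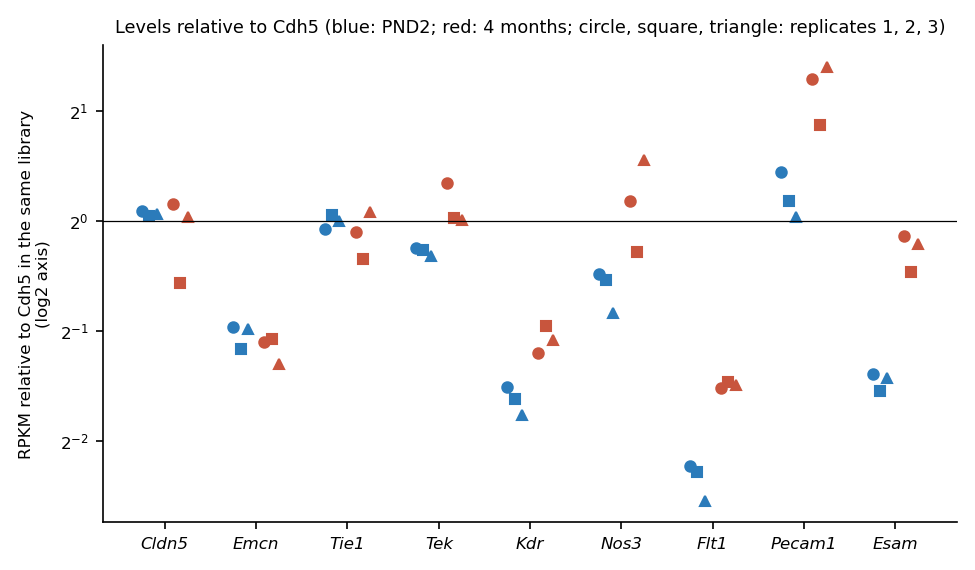
RPKM of each of 9 endothelial genes divided by that of Cdh5 in the same library, on a log2 axis, at PND2 (blue) and 4 months (red), with symbols for the replicates. Cldn5, Emcn and Tie1 overlap between the ages, and the 3 red values lie above the 3 blue ones for the other 6 genes.

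Exon values were examined for 9 of the genes, since Cldn5 has a single annotated exon. Of their 220 exons tested, 217 were lower at 4 months. This repeats the fall of the genes they belong to and is no separate support, and the share of all exons that were lower was not counted. Use of an exon relative to its gene was tested with limma's diffSplice over all genes, and 0 of the 220 passed an adjusted p under 0.05, against 0.680% of all exons tested. At an unadjusted p under 0.05 there were 8 of the 220, of which 4 belonged to Flt1 and 4 to Pecam1. How many of all exons tested reach that limit was not counted, so the 8 are not read as a result. Between 0 and 3 exons passed in the alternatives, all of them in Pecam1, with 3 without PND2 replicate 1. The exon sets described next were chosen after these values were seen.

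The Pecam1 exons in question encode part of the cytoplasmic tail of PECAM-1, a stretch known to be spliced in alternative ways. The 3 exons of Pecam1 that were not lower at 4 months are a 23-base exon (chr11:106662002-106662024, minus strand) and 2 longer exons that contain it, one of which had a diffSplice adjusted p of 0.0519. The fourth Pecam1 exon with an unadjusted p under 0.05 was a 57-base exon (chr11:106671742-106671798), whose log2 change was -0.03. Both exons are shown from a GENCODE M21 transcript of Pecam1 (GRCm38), 5′ to 3′, because they were among the exons with an unadjusted p under 0.05. Their diffSplice adjusted p of 0.829 (57 bases) and 0.232 (23 bases) did not pass. In the sequences, capitals mark the exon and small letters the 12 bases of the transcript on either side.
Pecam1 57-base exon: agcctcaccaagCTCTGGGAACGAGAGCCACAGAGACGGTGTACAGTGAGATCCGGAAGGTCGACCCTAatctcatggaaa
Pecam1 23-base exon: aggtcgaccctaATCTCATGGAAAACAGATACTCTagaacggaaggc

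Relative to the 63-base exon that precedes it, the 57-base exon stood at 49.4, 44.7 and 53.1% at PND2 and at 74.8, 68.1 and 75.7% at 4 months, with no overlap. The 23-base exon stood at 55.2, 32.3 and 37.6% at PND2 and at 83.05, 86.7 and 78.0% at 4 months, again with no overlap. In reads, the 23-base exon held 67 to 228 at PND2 and 112 to 181 at 4 months. Both differences had a 2-sided exact permutation p of 0.1, the smallest possible. The reads were 50 bases long, so the RPKM of such short exons are not on the scale of longer ones, and these percentages are not shares of transcripts that include the exon.

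For Flt1, the soluble form reads on past the last exon it shares with the membrane-bound form into sequence that the latter splices out. The coding stretch found only in the soluble transcript (GENCODE M21) is shown because it tells the forms apart. It lies at chr5:147639130-147639224 (GRCm38, minus strand). Capitals mark its 95 bases up to and including the stop codon and small letters the 12 bases before them.
Flt1 soluble-only stretch: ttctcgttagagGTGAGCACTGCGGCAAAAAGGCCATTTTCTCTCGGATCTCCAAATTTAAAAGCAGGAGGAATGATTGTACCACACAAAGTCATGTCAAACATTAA

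Exons shared by both forms measured 39.3, 31.4 and 38.2 RPKM at PND2 and 17.4, 24.1 and 15.1 RPKM at 4 months, taken over 13 exons. The 17 exons of the membrane-bound form alone measured 29.5, 23.3 and 26.9 RPKM at PND2 and 18.5, 21.7 and 19.0 RPKM at 4 months. In both sets every 4 month library lay below every PND2 library, and the ratio of the 4 month mean to the PND2 mean was 0.520 for the shared and 0.742 for the membrane-only exons. The shared exons stood at 1.33, 1.35 and 1.42 times the membrane-only exons at PND2 and at 0.939, 1.11 and 0.798 times at 4 months (2-sided exact permutation test, p = 0.1).

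The remaining stretch is the tail found only in the soluble transcript. It measured 15.3, 9.68 and 11.5 RPKM at PND2 and 7.12, 9.98 and 7.70 RPKM at 4 months, which overlap. Relative to the membrane-only exons it stood at 0.520, 0.416 and 0.428 at PND2 and at 0.384, 0.460 and 0.406 at 4 months (exact permutation p = 0.5). Change along the transcript was also taken over 8136 genes with at least 6 exons. The later exons exceeded the earlier ones by a median of 0.06 on the log2 scale of change, by 0.45 in Pecam1 and by 0.40 in Flt1, at the 95.9th and 94.3rd percentile of these genes. The part of transcript position in the exon differences of both genes was not tested further.

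**Figure D4:**
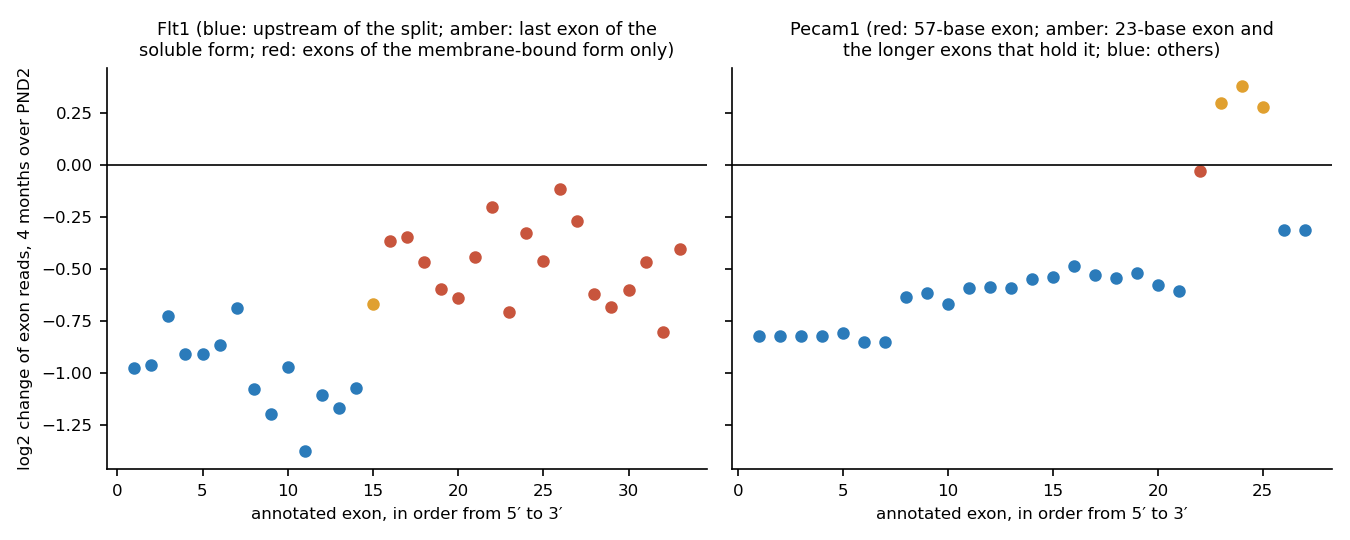
Log2 change of exon reads from PND2 to 4 months for the annotated exons of Flt1 and Pecam1, in order from 5′ to 3′, coloured by exon set. In Flt1 most exons upstream of the split (blue) lie below those of the membrane-bound form (red), and in Pecam1 the 23-base exon and the longer exons that hold it (amber) lie above 0.

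The ligands and partners of these receptors did not move as a block with them. Of 18 angiopoietin and VEGF signalling genes, 6 were higher and 5 lower at 4 months, and the median change was 0.10 on the log2 scale. Angpt1, the main activating ligand of Tie2, measured 3.97, 4.81 and 5.60 RPKM at PND2 and 15.4, 14.5 and 10.3 RPKM at 4 months (log2 fold change 1.46, limma adjusted p = 0.00183). Angpt4, another Tie2 ligand, was at 0.264, 0.351 and 0.527 RPKM at PND2 and at 35.2, 19.4 and 31.7 RPKM at 4 months, a log2 fold change of 5.90 that understates the change because of the added 0.1. Both ligands rose in every 4 month library while their receptor fell. Angpt2, a context-dependent ligand of Tie2, ranged from 24.8 to 52.8 RPKM at PND2 and from 29.98 to 38.9 RPKM at 4 months, which overlap (limma adjusted p = 0.868).

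Of the VEGF ligands, Vegfa averaged 61.3 and 64.9 RPKM at PND2 and 4 months, Vegfb 59.4 and 64.2 RPKM, Pgf 11.1 and 11.9 RPKM and Vegfc 19.6 and 18.1 RPKM. For these 4 the limma adjusted p ran from 0.474 to 0.720. Figf, the gene of VEGF-D, was higher at 4 months (7.64 and 18.7 RPKM, log2 fold change 1.29). Of the other receptors and partners named, 3 were lower at 4 months. The co-receptor Nrp1 fell by 0.70 on the log2 scale, the lymphatic VEGF receptor Flt4 by 1.02, and Ptprb, the endothelial phosphatase that acts on Tie2 and VE-cadherin, by 0.72.

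Among 20 junction partners, 10 were lower and 1 was higher at 4 months, and the median change was -0.41 on the log2 scale. Rasip1, a regulator of endothelial junctions and lumens, fell by 1.14, F11r, the gene of the junctional adhesion molecule JAM-A, by 1.13 and Cgnl1, the gene of a junction plaque protein, by 0.92 on the log2 scale. Of 16 nitric oxide genes, 15 could be tested, and 7 were higher and 2 lower, with a median of 0.38. Ddah1, which breaks down an inhibitor of nitric oxide synthases, went from 22.8 to 3.97 RPKM, while Gucy1a3, a subunit of the nitric oxide receptor, rose by 0.97 and Spr, an enzyme of cofactor synthesis for Nos3, by 0.90. Cav1, whose product binds and restrains the enzyme, had 268 and 348 RPKM (limma adjusted p = 0.0609).

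Of 32 other pan-endothelial markers, 21 were lower at 4 months and 0 were higher, and the median change was -0.64 on the log2 scale. The 3 called genes with the largest change were Tspan18, Sox18 and Sox7, of which the last pair encode endothelial transcription factors, at -1.83, -1.51 and -1.37. Eng, a co-receptor for TGF-beta family ligands, fell by 0.64 and Vwf, the clotting protein stored in endothelial granules, by 0.72, a call lost without PND2 replicates 1 or 3 or without 4 month replicates 2 or 3. The progenitor and vessel antigen Cd34 and the ETS factor Erg had log2 fold changes of -0.24 and -0.37 and did not pass (limma adjusted p = 0.0508 and 0.0529), although Erg passed without PND2 replicate 2. The summed level of these 32 markers was 1310, 1116 and 1383 RPKM in PND2 replicates 1 to 3, lowest in replicate 2 as for the 10 genes, and 767 to 804 RPKM at 4 months.

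Subsets of endothelial genes were divided. Among 15 shear and arterial genes 4 were higher and 8 lower, with the gap junction genes Gja4 and Gja5 and the vasoconstrictor gene Edn1 down by 2.13, 1.98 and 1.94 on the log2 scale and the flow-responsive factor Klf2 up by 0.74. Among 12 endocardial and valve endothelial genes 4 were higher and 6 lower, and the median change was -0.53 on the log2 scale. The lower genes included Npr3, Bmp6 and Nfatc1, at -1.42, -1.37 and -0.88. The genes of this list with the largest change were Cytl1, Ecm1 and Mgp, at 2.51, 2.21 and 1.47, which encode secreted proteins and are not limited to endothelium. Of 12 capillary markers 2 were higher and 2 lower, with Fabp5 (-2.55) and Gpihbp1 (-1.08) down and Rgcc (1.24) up. Cd36, the most abundant of them and a fatty acid receptor also found in other cells, had 220 and 194 RPKM (limma adjusted p = 0.559). Of 8 lymphatic markers 5 were lower and 1 higher, with Reln, Prox1 and Mmrn1 at -2.60, -1.86 and -1.14, and the most abundant, Ccl21a, at -1.12.

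**Figure D5:**
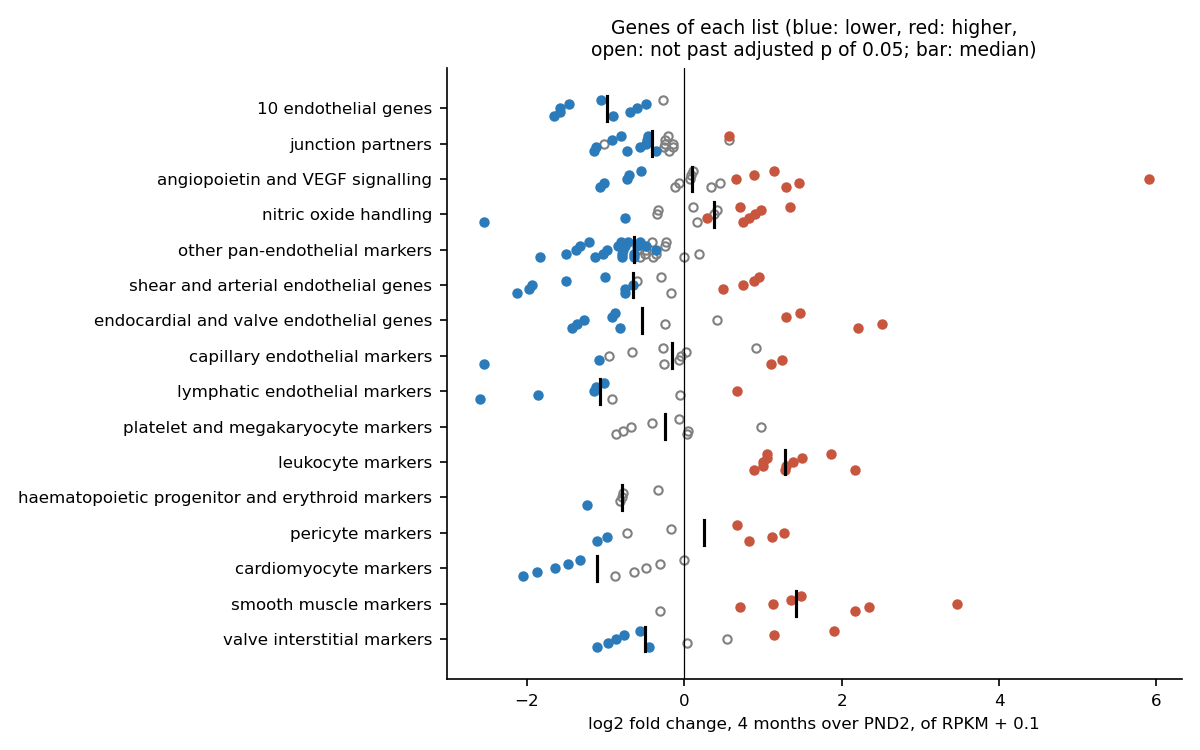
Log2 fold change from PND2 to 4 months for the tested genes of 16 of the 18 lists, with called genes filled (blue lower, red higher), other genes open and the median as a bar. The 10 endothelial genes all lie left of 0, as do most other pan-endothelial markers, and all leukocyte markers lie to the right.

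Markers of the other cells of the isolated valve moved as well. Smooth muscle markers rose in 7 of 8 genes (Myh11, Smtn and Lmod1 at 3.47, 2.35 and 2.17), and their sum, mostly Acta2, was between 7499 and 8670 RPKM at PND2 and between 16934 and 28034 RPKM at 4 months. Adipocyte markers rose in 8 of 8, with Cfd, Adipoq and Cidec leading and Cidec listed at 0 in the 3 PND2 libraries. Their sum was 44.5 to 48.3 RPKM at PND2 and 383, 1391 and 363 RPKM in 4 month replicates 1 to 3. Leukocyte markers included Itgb2, Cd52 and Laptm5 (2.18, 1.49 and 1.38), and C1qa, the most abundant by the mean over all 6 libraries, rose by 1.28.

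Cardiomyocyte markers were lower in 5 of 10 genes and higher in 0, with Actc1, Myl2 and Ttn at -1.88, -2.05 and -1.64, and summed to between 17318.5 and 19232 RPKM at PND2 and between 6904 and 10745 RPKM at 4 months. Of 8 pericyte markers 4 were higher (Abcc9 at 1.27 and Kcnj8 at 1.11 among them) and 2 lower (Notch3 at -1.11 and Rgs5, the most abundant over all 6 libraries, at -0.99). Of 10 valve interstitial markers 2 were higher (Dcn, the most abundant over all 6 libraries, at 1.90 and Lum at 1.13) and 6 lower, with Fbn1 at -1.11. Of 8 haematopoietic progenitor and erythroid markers 5 could be tested and 1 was lower, and the most abundant, Hba-a2, a near copy of Hba-a1, had 772 and 478 RPKM (limma adjusted p = 0.120). All 8 mitotic genes were lower, with Cdk1, Top2a and Mki67 at -4.07, -3.38 and -2.97. The part of any of these cells or of cell division in the level of the 10 endothelial genes was not tested.

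The genes whose profile over the 6 libraries was most like the mean profile of the 10, by root mean square difference of centred log2(RPKM + 0.1) among genes of at least 5 RPKM, were Nrarp (0.0360), Gm38287 (0.0470), Sh3tc1 (0.0832), Gm17206 (0.0835) and Rasip1 (0.0839). Of the 10 themselves Tek lay nearest to that mean (0.106) and Esam farthest from it (0.383). Nrarp, a feedback regulator of Notch signalling, had 10.3 and 5.04 RPKM, and Gm38287 and Gm17206 are antisense genes. Gm38287 lies within Nrarp on the opposite strand at nearly the same RPKM, so the reads of the pair cannot be told apart and they may count as 1 profile. The order rests on 6 libraries, and a small difference from the mean profile says nothing of shared function.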

How the data were processed

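Wild type C57BL/6J aortic valves were profiled by RNA-seq in 3 PND2 and 3 libraries of 4 months. Per the study's methods, the authors trimmed 50 nt paired-end reads, aligned them with TopHat2 2.1.0 to mm10, obtained gene and exon levels on the Ensembl annotation with easyRNASeq and deposited RPKM, so a level is relative to its library total and to summed exonic length. Replicates were not pooled by the authors. Whole reads were recovered from these values (tolerance 0.02) and used for exon tests and depth.

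Genes that reached 0.1 RPKM in 3 or more libraries were fitted with limma 3.58.1 (R 4.3.3) on log2(RPKM + 0.1) with a trend and 2-sided, Benjamini-Hochberg adjusted p-values. Exons with a mean of at least 50 reads were tested with voom weights and diffSplice, after exons of identical coordinates were merged (448141 to 387776 rows). Ratios within a library were compared with exact permutation tests. Sequences came from RefSeq promoters (6 members had one) and GENCODE M21 transcripts. Python 3.11.15, pandas 2.3.3, scipy 1.17.1 and matplotlib 3.10.9 made tables and figures, and the tests were tried on simulated data.

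The 10 members, the 17 other lists and the alternatives were chosen with earlier results of these data known. Some genes stand in more than 1 list, and the study's own proliferation list, drawn up on these libraries, held Cdh5 and Tek. Named from each list were the 3 called genes with the largest change among those of at least 5 RPKM at the higher age, the most abundant gene (mean over the 6 libraries) of lists for other cells, ligands, receptors and partners of members, a few well-known endothelial genes, and the 5 genes most like the mean profile of the 10. The 18 alternatives changed the pseudocount, the filter, the trend, the test, the floor on low reads, the scaling, the gene types, the use of recovered reads (voom) and a replicate block, or left out a library. Ratios between paralogs and the exon sets of Flt1 and Pecam1 were added after the data were seen. Further platelet and endocardial genes were also named after their values were seen.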

Additional observations from a re-analysis of the deposited data

How the results depend on the processing

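The direction of all 10 members was kept in all 18 alternatives, and Cdh5, Tek, Tie1, Emcn and Cldn5 stayed past the threshold in each. Of the 10, 9 were lower by limma and 5 by a per-gene unequal-variance test as used in the study, where Kdr, Nos3, Flt1, Pecam1 and Esam did not pass. The number of members lower was 7 with median scaling (Flt1, Pecam1 and Esam not called), which moved the median of all genes from -0.14 to -0.01. It was 7 to 10 with each library left out. The number with a factor over 2 was 4 to 6 and the median log2 fold change -1.11 to -0.89 with each library left out. With a replicate block 8 members were lower, with Flt1 and Esam not called, and 1 Pecam1 exon passed instead of 0. The labels tie no shared litter or batch to the replicate numbers, and libraries with the same number did not deviate together (correlations 0.0439, -0.0608 and -0.160). Exon use passed in 3 Pecam1 exons without weights and in 0 to 3 with each library left out, 3 without PND2 replicate 1 and 1 without PND2 replicate 2. The cause was not tested.

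Values that changed sign were those of small or uncalled differences. Relative to Pecam1 in place of Cdh5 the log2 ratios were -0.56 for Tek, -0.42 for Kdr, -0.11 for Flt1 and -0.20 for Nos3, and relative to the mean of the other 9 members Tek was at -0.028. Angpt2 was at 0.059 with median scaling and 0.0022 with quantile normalization, and Vegfc at 0.0045 with median scaling. With each library left out, the ratio of Cldn5 to Cdh5 ran from -0.33 to 0.027 (above 0 without 4 months replicate 2), Angpt2 from -0.31 to 0.24 (above 0 without PND2 replicate 3), Cd36 from -0.59 to 0.025 and Pf4 from -0.038 to 0.16 (both reversed without 4 months replicate 1), Vegfa from -0.041 to 0.16 (replicate 2 of 4 months) and Pgf from -0.057 to 0.20 (replicate 3 of 4 months). Among the ratios and the genes named by the rule above, 94 values lost and 13 gained significance under an alternative. Besides Pecam1, Flt1 and Vwf, calls of Ccl21a, Mmrn1, Rgs5, Rgcc, Gpihbp1, Myl2 and Acta2 were lost without at least 1 library (Gpihbp1 only without 4 months replicate 1, Acta2 only without PND2 replicate 1), and Hba-a2 passed without 4 months replicate 2. Depth did not limit the members, whose lowest count was 921 reads, while the short Pecam1 exons rest on 67 reads or more.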
